A study of Mus musculus with 8 samples.

Results

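Some names in the miRNA catalogue carry short reads whose status as miRNAs is doubtful, for example because their sequence also occurs in other kinds of RNA or because few features of a miRNA precursor surround it. The 5 names described here were grouped as doubtful, without either reason being shown for each. They are mmu-miR-5126, mmu-miR-6236, mmu-miR-6239, mmu-miR-6240 and mmu-miR-5100, out of 1966 mature names (2108 loci) in the deposited tables. Each has 1 locus there. They were picked by name, with the counts at 0, 1 and 2 mismatches and the values of U6 against CAG-EGFP plasmids in view. Those measures were used to select them and are given below as a description, without tests.

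The libraries are small RNA libraries of NIH3T3 cells, an immortalised mouse fibroblast line, taken 48 h after transient transfection with a plasmid that expresses a long RNA hairpin. There were 2 libraries for each of 4 plasmids, 8 in all, from separately transfected wells. U6-Lin28aIR and U6-MosIR carry the U6 promoter, transcribed by RNA polymerase III, whereas CAG-EGFP-Lin28IR and CAG-EGFP-MosIR carry the CAG promoter and an EGFP reporter. By the study's account the hairpin RNAs of the CAG-EGFP plasmids also have a longer duplex flanked by long single strands, so more than the promoter differs, and the Lin28 and Mos hairpins differ in sequence. The study marks a Lin28b segment in the CAG-EGFP-Lin28IR hairpin, whereas the U6 plasmid is named for Lin28a. The 2 plasmids joined here as Lin28 therefore do not carry the same hairpin. All 8 libraries come from transfected cells, and no library of cells without a hairpin plasmid was used here.

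A canonical miRNA is cut from a hairpin precursor by Drosha and Dicer and is loaded into an Argonaute protein, where its seed, bases 2 to 8 from the 5′ end, selects targets. Fragments of tRNA, rRNA and other abundant RNAs have similar lengths and enter the same libraries. A read that comes from such an RNA can be counted under a miRNA name where it fits that locus, sometimes only when mismatches are allowed. For that reason the counts at each mismatch setting are given for these names. They do not by themselves show which RNA a read came from, and the origin of the reads was not tested.

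The mature sequences are shown first, since the comparisons of sequence below use them. They are from RefSeq on GRCm38.p6, 5′ to 3′, with the seed in capitals:
mmu-miR-5126: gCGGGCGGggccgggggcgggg
mmu-miR-6239: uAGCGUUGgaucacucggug
mmu-miR-5100: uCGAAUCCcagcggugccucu
mmu-miR-6240: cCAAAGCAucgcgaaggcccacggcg
mmu-miR-6236: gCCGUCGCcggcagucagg

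The 5 seeds all differ from each other. The seeds of miR-5126, miR-6236 and miR-5100 were shared with no other mature sequence in the RefSeq table, that of miR-6239 with miR-6351, and that of miR-6240 with miR-330-3p. No mature sequence in that table contained a member or lay inside one. miR-5126 consists of G and C alone (100% GC, with G at 77.3% of positions) and ranked first in GC content among 1675 names with a sequence, whose median was 52.2%. miR-6236 had 78.9% GC, miR-6240 69.2%, miR-5100 61.9% and miR-6239 55.0%. The 10 most abundant miRNAs of these cells had a median of 40.9% GC and at most 54.5%, so each member was above all of them.

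The loci lie apart in the genome (GRCm38). miR-5126 is at chr1:84695890-84695911 on the plus strand, opposite an exon and UTR of Dner, a gene for a Notch-pathway membrane protein. miR-6239 is at chr14:117953768-117953787 on the minus strand, opposite an intron of Gpc6, a glypican. miR-5100 is at chr11:60728698-60728718 on the plus strand, in an intron of Mief2, a mitochondrial fission factor, and on its strand. miR-6240 is at chr5:114851973-114851998 on the plus strand, outside annotated genes of GENCODE M21, and so is miR-6236, at chr9:110281353-110281371 on the plus strand, which RefSeq places opposite the lncRNA Gm39429.

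Each mature sequence was searched in both strands of the GRCm38.p6 primary assembly with up to 2 mismatches. miR-5126 matched 2 sites perfectly, 8 with 1 mismatch and 197 with 2. Its second perfect site is chr9:101251543-101251564 on the minus strand, in an intron of Ppp2r3a and on that gene's strand. None of these sites lay in a tRNA or rRNA gene of the RefSeq annotation. In this search miR-6240 matched its own locus and nothing else, and miR-6236 matched its own locus, no site with 1 mismatch and 4 with 2. Sequences absent from the primary assembly, and matches with gaps or more than 2 mismatches, could not be found this way. The search therefore does not show that a name has no other source.

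miR-6239 has a close copy within its own precursor. The copy starts 30 bases away, at chr14:117953798-117953817 on the minus strand, and was the 1 further site found with up to 2 mismatches. It differs by G17A, where positions count from 1 at the 5′ end of the miRNA, the first letter is the miRNA's base and the last the copy's. The pair is shown with the base that differs in capitals in the copy:
mmu-miR-6239 locus: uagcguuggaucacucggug
copy in the precursor: uagcguuggaucacucAgug

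miR-5100 resembles a tRNA. All 5 further sites with 1 or 2 mismatches lay in RefSeq genes for tRNA-Thr, on the tRNA strand, and the closest 2, in n-TTagt7 and n-TTagt8, differed from it by C20U alone. In 4 of the 5 tRNA genes the last 21 bases, 54 to 74, were identical to bases 34 to 54 of the miR-5100 precursor. These bases are shown in capitals in the precursor and in n-TTagt8 (chr11:69037853-69037926, plus strand):
Mir5100 precursor: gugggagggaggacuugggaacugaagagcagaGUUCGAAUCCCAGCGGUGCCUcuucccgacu
n-TTagt8: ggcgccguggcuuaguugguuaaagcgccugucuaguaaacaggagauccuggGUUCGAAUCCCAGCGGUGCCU

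Cells add CCA to the 3′ end of tRNAs. With CCA appended to these tRNA genes, miR-5100 differed from 4 of them by U21C alone. The shared stretch holds the T loop of the tRNA and runs to the end of its acceptor stem.

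The RefSeq table holds precursors of miR-5126, miR-5100 and miR-6240. The minimum free energy of the miR-5126 precursor was -0.63 kcal/mol per base (RNAfold), rank 33 from the most stable among 991 precursors, with 83.1% GC in the precursor. The value was -0.39 for miR-5100, rank 567, and -0.21 for miR-6240, rank 978, against a median of -0.41. In the predicted fold 68.2% of the miR-5126 bases were paired, 76.2% of miR-5100 and 73.1% of miR-6240, against a median of 81.0% over 1635 mature sequences. The miR-5126 precursor is shown with the mature sequence in capitals:
Mir5126 precursor: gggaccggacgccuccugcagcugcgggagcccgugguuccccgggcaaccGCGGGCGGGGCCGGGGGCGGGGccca

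Reads that mapped perfectly numbered 12898619 to 16228597 per library, of which counts on mature miRNAs made up 10.9% to 22.1%. Levels are given as RPM, counts without mismatches per 1000000 perfectly mapped reads. Counting error alone leaves room for 3 counts, or 0.185 to 0.233 RPM by library, where none was found. The 8 fibroblast markers summed to 73230 to 88145 RPM with U6 and 37537 to 59301 RPM with CAG-EGFP plasmids. That sum mostly reflects miR-21a-5p and does not by itself show the cell type. Over the 8 libraries miR-21a-5p had 5658419 counts without mismatches, against 991760 for miR-31-5p, the next, and 5640 for miR-145a-5p, the lowest. The 15 markers of 6 other cell types summed to 186 to 221 RPM with U6 and 108 to 166 RPM with CAG-EGFP plasmids. Nearly all of that came from the neuron list (184 to 218 RPM and 106 to 163 RPM). That list holds 2 names, and its sum does not show that neurons were present. miR-9-5p alone had 18636 counts without mismatches over the 8 libraries. miR-124-3p was not among the 321 names with at least 100 counts with up to 2 mismatches. miR-294-3p, miR-302a-3p and miR-302b-3p had no counts. In such bulk libraries fewer cells of a type and less RNA per cell cannot be told apart. Together the 5 names made up 0.0240% to 0.0569% of miRNA counts.

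miR-5126 was the most abundant of the 5, at rank 125 of 1966 names by mean level. It had 46.1 and 39.5 RPM in the U6-Lin28aIR libraries and 35.3 and 40.7 RPM in the U6-MosIR libraries, against 50.4 and 52.4 RPM with CAG-EGFP-Lin28IR and 52.6 and 67.8 RPM with CAG-EGFP-MosIR. Every U6 library was below every CAG-EGFP library. The mean was 40.4 ± 4.46 RPM with U6 and 55.8 ± 8.05 RPM with CAG-EGFP plasmids (SD, n = 4 libraries each, which join 2 plasmids). Among 231 names with at least 500 counts, 1 (0.433%) was lower in every U6 library, namely miR-5126, whereas 39.8% were higher in every U6 library. In all, 40.3% did not overlap in either direction, and the median log2 ratio of U6 over CAG-EGFP was 0.49. These counts depended on the scale. Scaled to 21–23-nt reads, 3 names (1.3%) were lower and 21 (9.09%) higher in every U6 library. Scaled to miRNA counts, 7 names (3.03%) were lower, miR-5126 among them, and 4 (1.73%) higher. CAG-EGFP-MosIR replicate 2 had the highest miR-5126 level, and without it the log2 ratio of means was -0.36, against -0.47 with all libraries.

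miR-6239 had 9.30 and 4.30 RPM with U6-Lin28aIR and 4.99 and 7.66 RPM with U6-MosIR, against 7.62 and 6.22 RPM with CAG-EGFP-Lin28IR and 5.42 and 6.25 RPM with CAG-EGFP-MosIR. The promoter groups overlapped, with means of 6.57 ± 2.33 RPM for U6 and 6.38 ± 0.912 RPM for CAG-EGFP plasmids (SD, n = 4 each).

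miR-5100 had 5.97 and 8.41 RPM with U6-Lin28aIR and 4.50 and 5.89 RPM with U6-MosIR, against 2.71 and 2.95 RPM with CAG-EGFP-Lin28IR and 3.80 and 4.48 RPM with CAG-EGFP-MosIR. All U6 libraries lay above all CAG-EGFP libraries, although the highest CAG-EGFP value, 4.48 RPM, and the lowest U6 value, 4.50 RPM, nearly touched. The mean was 6.19 ± 1.63 RPM with U6 and 3.49 ± 0.814 RPM with CAG-EGFP plasmids (SD, n = 4 each), a log2 ratio of 0.83. In RPM 39.8% of names separated in this direction, whereas 1.73% did so on the scale of miRNA counts, where miR-5100 overlapped.

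miR-6240 and miR-6236 were near the limit of detection without mismatches. miR-6240 had 15 and 9 counts with U6-Lin28aIR and 8 and 7 with U6-MosIR, against 21 and 1 with CAG-EGFP-Lin28IR and 6 and 1 with CAG-EGFP-MosIR. miR-6236 had 1 and 6 counts with U6-Lin28aIR and 1 and 1 with U6-MosIR, against 4 and 5 with CAG-EGFP-Lin28IR and 4 and 1 with CAG-EGFP-MosIR. Both overlapped between promoters in RPM without mismatches.

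**Figure D1:**
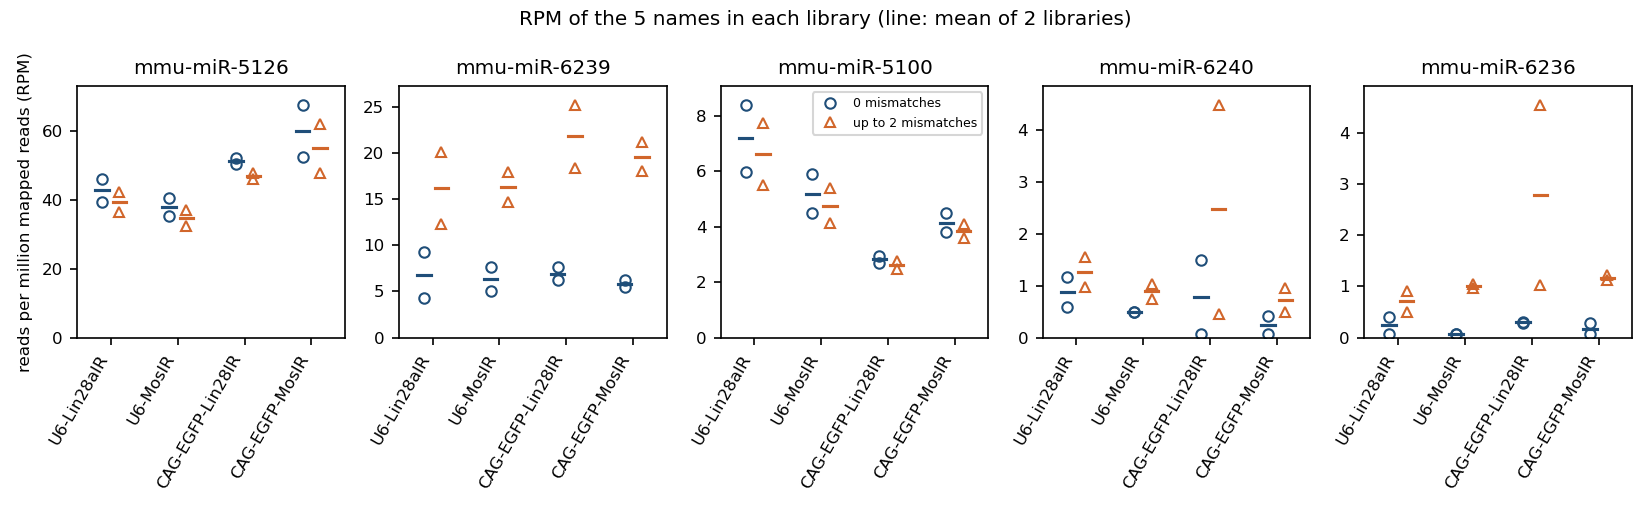
RPM (linear axes from 0, a scale of its own for each name) of the 5 names in each library of the 4 plasmids, with circles for 0 mismatches, triangles for up to 2 mismatches and lines for the mean of 2 libraries. miR-5126 was at 35.3 to 46.1 RPM in U6 and 50.4 to 67.8 RPM in CAG-EGFP libraries without mismatches, and CAG-EGFP-Lin28IR replicate 1 stands high for miR-6240 and miR-6236 with up to 2 mismatches.

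The 5 names differed widely in how their counts grew when mismatches were allowed. Growth is the count with up to 2 mismatches divided by the count without any. Minimum counts for the 232 and 321 names below refer to up to 2 mismatches, and that for the 231 names to counts without mismatches. Over the 8 libraries the counts of miR-5126 summed to 5623 with 0, 5634 with up to 1 and 5634 with up to 2 mismatches, a growth of 1.002. Those of miR-5100 summed to 565, 569 and 569, a growth of 1.007, the median of all 321 names with at least 100 counts. Both values were close to those of most miRNAs, and the 10 most abundant miRNAs had growths of 1.005 to 1.011. miR-5126 ranked 228 and miR-5100 ranked 113 of 232 names with at least 500 counts.

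miR-6239 grew from 1 mismatch on. Its counts summed to 749 with 0, 2351 with up to 1 and 2351 with up to 2 mismatches, so 1602 counts had exactly 1 mismatch and 0 had exactly 2. The growth of 3.14 was the highest of the 232 names, of which 2 exceeded 1.5. miR-6236 grew at both steps, with sums of 23, 67 and 180, and miR-6240 mostly at the first, with 68, 162 and 167. Their growths were 7.83 and 2.46. They are not ranked, because with so few perfect counts they reach the minimum of 100 only through their growth.

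Of the 321 names, 8 grew by more than 1.5 times, among which miR-6239 and miR-5099 had at least 100 counts without mismatches. The other 5 besides the members, named after their values were seen, were miR-21b, miR-99a-5p, miR-378d, let-7j and miR-5099. miR-99a-5p differs from the more abundant miR-100-5p by 1 base in an ungapped comparison, let-7j from let-7i-5p by 1 and miR-378d from miR-378c by 2. For miR-6236, miR-6239 and miR-6240, and likewise for miR-21b, no more abundant mature sequence was found within 2 mismatches, and miR-5099 was not compared.

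**Figure D2:**
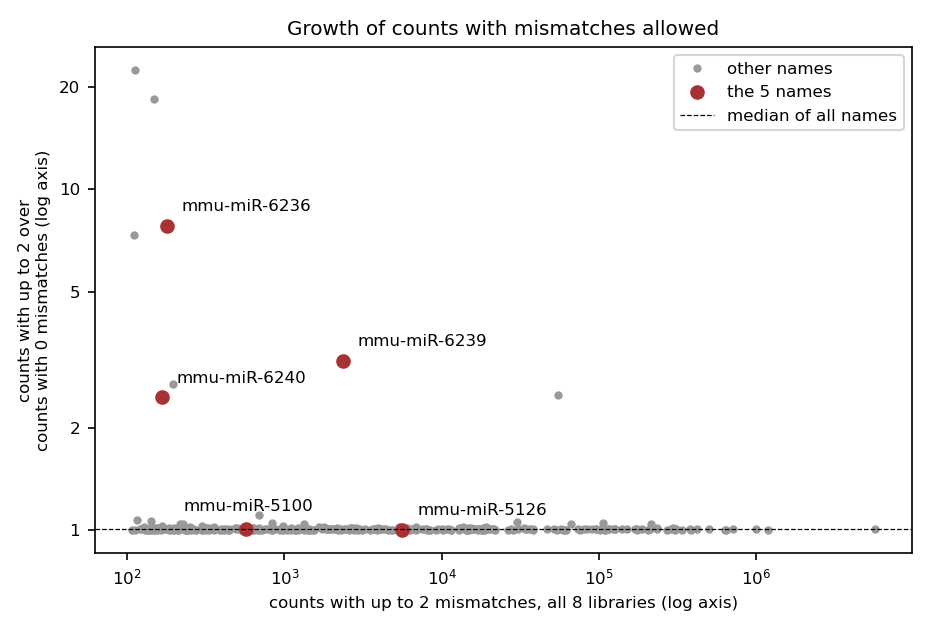
Counts with up to 2 mismatches over counts without mismatches (log axis) against the counts with up to 2 mismatches in all 8 libraries (log axis), for 321 names with at least 100 counts on that axis; red points are the 5 names and the dashed line is the median, 1.007. miR-6236, miR-6239 and miR-6240 lie well above the line, miR-5100 lies on it and miR-5126, at 1.002, lies slightly below it.

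The mismatched counts of miR-6239 did not overlap between promoters, while its perfect counts did. Exactly 1 mismatch was found in 164 and 137 counts with U6-Lin28aIR and 179 and 169 with U6-MosIR, against 281 and 220 with CAG-EGFP-Lin28IR and 204 and 248 with CAG-EGFP-MosIR. Scaled per 1000000 reads mapped with up to 1 mismatch, the level was 10.3 ± 1.41 with U6 and 15.0 ± 2.60 with CAG-EGFP plasmids (SD, n = 4 each), and the groups did not overlap. Of 90 names with at least 100 counts of exactly 1 mismatch, 26.7% did not overlap between promoters in either direction. miR-6239 was the 1 name (1.11%) that was lower in every U6 library, and the median log2 ratio of U6 over CAG-EGFP was 0.48.

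Perfect counts were a larger share of the miR-6239 counts in U6 libraries. The share was 42.3% and 32.2% with U6-Lin28aIR and 31.2% and 39.0% with U6-MosIR, against 27.6% and 31.0% with CAG-EGFP-Lin28IR and 27.4% and 27.1% with CAG-EGFP-MosIR. The lowest U6 share, 31.2% (95% Clopper-Pearson interval 25.6% to 37.2%), and the highest CAG-EGFP share, 31.0% (26.0% to 36.4%), had intervals that overlapped. Of 232 names 3.02% did not overlap between promoters in this share, and 1.29% were higher in every U6 library. Such intervals cover counting error only, as PCR copies are not independent molecules. The share of miR-6240 did not overlap between promoters either, from 8 to 69 counts a library. It was 57.4 ± 10.3% with U6 and 23.9 ± 13.7% with CAG-EGFP plasmids (SD, n = 4 each). The lowest U6 share, 43.75% (19.8% to 70.1%), and the highest CAG-EGFP share, 40.0% (16.3% to 67.7%), had intervals that overlapped widely. The shares of 12.5% in replicate 2 of CAG-EGFP-MosIR and of CAG-EGFP-Lin28IR each rest on 1 perfect count. miR-6240 is not among the 232 names, so the percentages of names given for them do not cover it.

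For miR-6240 and miR-6236 a single library held many of the mismatched counts. CAG-EGFP-Lin28IR replicate 1 held 46 counts of miR-6240 with exactly 1 mismatch, against 5 to 9 in the other 7 libraries. It held 60 counts of miR-6236 with exactly 2 mismatches, against 3 to 12 in the others. With up to 2 mismatches its level was 4.48 RPM for miR-6240, 2.89 times the next library, and 4.55 RPM for miR-6236, 3.74 times the next. Without that library the summed growth was 5.79 for miR-6236 and 2.09 for miR-6240, against 7.83 and 2.46 with it. The mean of the libraries' own growths moved less, to 9.84 for miR-6236, against 10.8 with it, and to 3.67 for miR-6240, against 3.62. The miR-6240 growth of that library was 3.29, below the 8.0 of CAG-EGFP-Lin28IR replicate 2 and CAG-EGFP-MosIR replicate 2, which each rest on 1 perfect count.

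**Figure D3:**
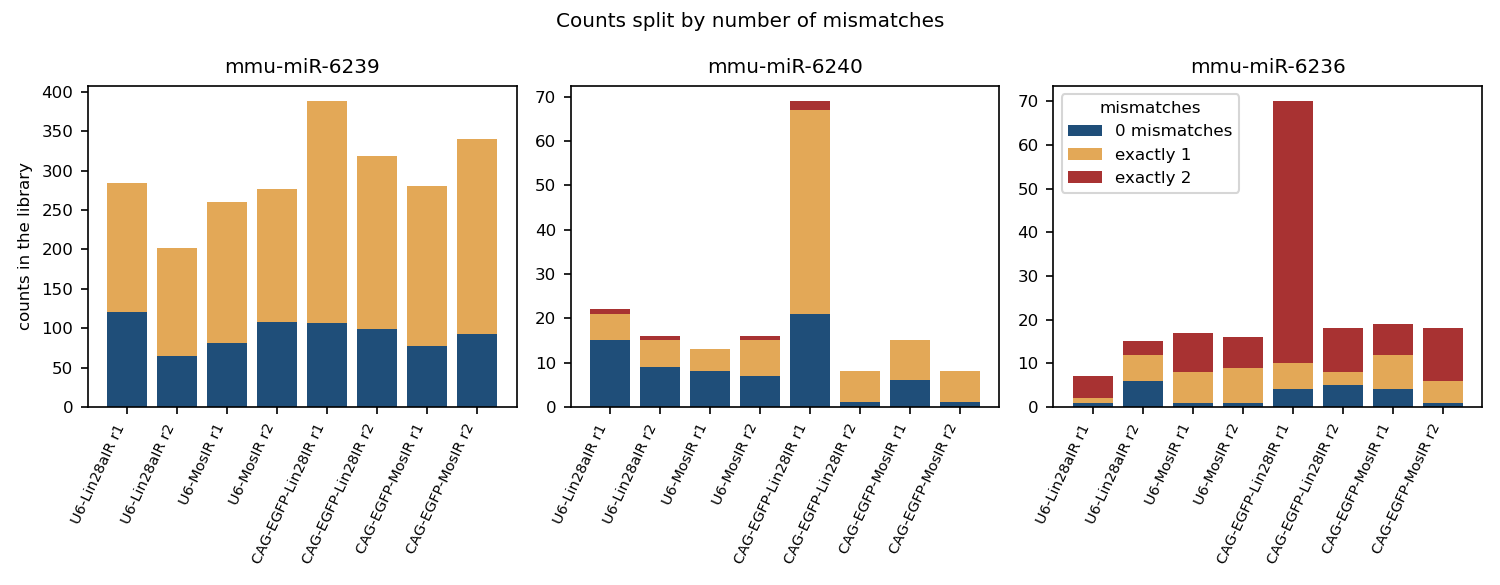
Counts in each of the 8 libraries (r1 and r2, replicates 1 and 2; linear axes from 0, a scale of its own for each name) of miR-6239, miR-6240 and miR-6236, stacked by number of mismatches. Exactly 1 mismatch makes up most of miR-6239 in every library, and CAG-EGFP-Lin28IR replicate 1 stands out with 46 counts of exactly 1 mismatch for miR-6240 and 60 of exactly 2 for miR-6236.

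The ratio of U6 to CAG-EGFP plasmids depended on the scale, as did that of most miRNAs. With counts scaled to all miRNA counts of the library instead of to mapped reads, the log2 ratio of miR-5126 was -1.001, against -0.47 in RPM, while the median of the 231 names was -0.05 on the scale of miRNA counts and 0.49 in RPM. miR-5126 had the second lowest ratio of these names on both. The log2 ratio of miR-5100 was 0.28 on the scale of miRNA counts and 0.83 in RPM. On the scale of miRNA counts its levels overlapped, at 24.1 to 38.01 per 1000000 miRNA counts with U6 and 19.9 to 28.8 with CAG-EGFP plasmids. The log2 ratio of miR-6239 was -0.49 on the scale of miRNA counts, 0.04 in RPM without mismatches and -0.35 in RPM with up to 2 mismatches. In an edgeR fit with TMM scaling, which centres the median of all miRNAs near 0, the log2 fold changes were -0.96 (SE 0.14) for miR-5126, -0.45 (SE 0.22) for miR-6239, 0.32 (SE 0.18) for miR-5100 and 0.12 (SE 0.65) for miR-6240. The last was 1.78 without CAG-EGFP-Lin28IR replicate 1. Over all 360 miRNAs tested in that fit 0.556% passed an adjusted p of 0.05 for U6 against CAG-EGFP, a comparison that served to pick the names. miR-6236 had too few counts without mismatches for the filter, so 4 of the 5 names were tested.

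**Figure D4:**
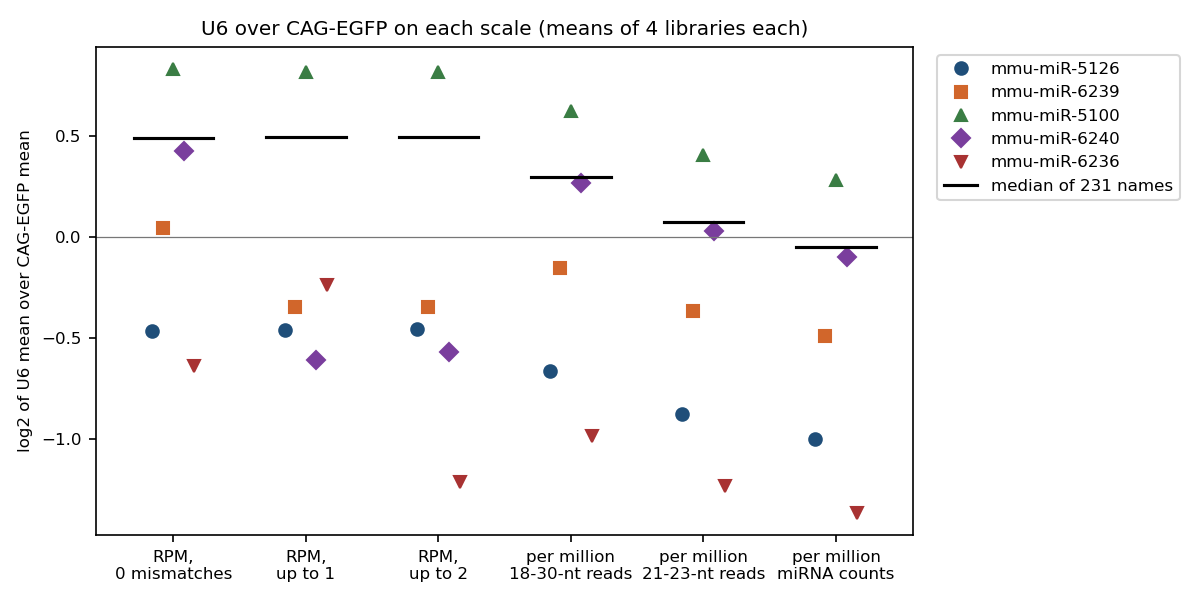
The log2 ratio of the U6 mean to the CAG-EGFP mean (4 libraries each) of the 5 names on 6 scales, with black bars for the median of 231 names with at least 500 counts. The median is 0.49 in RPM without mismatches and -0.05 on the scale of miRNA counts, and miR-5126 lies below it on each scale, at -0.47 and -1.001 on these 2.

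The Lin28 against Mos hairpin comparison was not used to pick the names. None of the 4 tested names passed in edgeR's quasi-likelihood test. The log2 fold change of Lin28 over Mos plasmids was 0.12 (SE 0.14) for miR-5126, 0.10 (SE 0.18) for miR-5100, 0.32 (SE 0.22) for miR-6239 and 1.31 (SE 0.66) for miR-6240, each with an adjusted p of 0.970. Of all 360 miRNAs 0% passed, 10 had an unadjusted p under 0.05, and DESeq2 also called 0, with 3 under 0.05. The miR-6240 value rested on CAG-EGFP-Lin28IR replicate 1, without which it was -0.39. miR-6240 also reached the count filter only through U6-Lin28aIR replicate 1 (15 counts) and CAG-EGFP-Lin28IR replicate 1 (21 counts). Both are Lin28 libraries, so its Lin28 against Mos test is not independent of the filter and decides nothing.

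The difference between promoters was also tested for dependence on the hairpin. The interaction, U6 over CAG-EGFP with Lin28 minus the same with Mos, was 0.52 (SE 0.36) for miR-5100, -0.09 (SE 0.28) for miR-5126, -0.60 (SE 0.43) for miR-6239 and -1.26 (SE 1.34) for miR-6240, each with an adjusted p of 0.994 in edgeR. Again 0% of the 360 miRNAs passed, with 13 under an unadjusted p of 0.05 and 0 called by DESeq2, which had 8 under 0.05. Without CAG-EGFP-Lin28IR replicate 1 the value of miR-6240 was 2.09. miR-6236, tested with up to 2 mismatches, had an interaction of -2.17 (SE 0.76, adjusted p = 0.970, edgeR), and the library with the highest count there was that same replicate. In RPM both U6-Lin28aIR libraries had more miR-5100 than both U6-MosIR libraries, and both CAG-EGFP-Lin28IR libraries had less than both CAG-EGFP-MosIR libraries. This arrangement was found in 12.1% of 231 names and its opposite in 0.433%.

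The share of perfect counts was compared between hairpins, for 232 names, with a two-sided exact permutation test over 70 assignments that mixed the promoters. It averaged 33.3% in Lin28 and 31.2% in Mos libraries for miR-6239, a difference of 2.11 percentage points (exact p = 0.543, adjusted p = 1.0). For miR-5126 it averaged 99.7% in Lin28 and 99.9% in Mos libraries (exact p = 0.171, adjusted p = 0.962), and for miR-5100 it was 99.2% in Lin28 and 99.1% in Mos libraries (exact p = 1.0, adjusted p = 1.0). Of the 232 names 0% passed after adjustment and 10 had an unadjusted p under 0.05, while the smallest p this design allows is 0.0286. With that floor, a name can pass after adjustment only if many names are at the floor together. The adjusted values therefore cannot decide whether a single name differs.

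Across the 8 libraries the 5 names did not share a common pattern. Pearson's r of log2(RPM + 1) between pairs of them ran from -0.47 for miR-5126 with miR-5100 to 0.45 for miR-6239 with miR-6240, as a description over libraries that share depth and composition. Among 230 other names the profile of miR-5100 was most like those of miR-455-5p (r = 0.98), miR-339-5p (0.98) and miR-3068-3p (0.96). That of miR-6239 was closest to miR-125a-5p (0.74), miR-1291 (0.71) and let-7b-5p (0.65). For miR-5126 the closest were miR-3535 (0.43), let-7b-5p (0.26) and miR-423-5p (0.25), so no name followed it closely.

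Names registered with neighbouring numbers (miR-5097 to miR-5136 and miR-6236 to miR-6244) gave 41 others, of which 23 had counts and 18 had none. The most abundant were miR-5121 with a mean of 872 RPM, miR-5099 with 189 RPM, miR-5114 with 2.68 RPM and miR-5113 with 1.22 RPM. Of the 4 with at least 100 counts, 1 grew by more than 1.5 times, miR-5099, at 2.497. In the edgeR fit 5 were tested and 0 passed in any of the 3 comparisons. Their median log2 fold change was 0.06 for Lin28 over Mos and -0.40 for the interaction, against 0.04 and -0.05 over all miRNAs.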

How the data were processed

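The authors trimmed adapters and 4 random bases from each end of the reads, aligned them to mm10 plus the plasmids using STAR 2.5.3a, kept all multimapping reads of best score, and took miRNA coordinates from miRBase. The mapping command sets no end-to-end alignment, so unmatched read ends could be clipped without counting as mismatches. The authors deposited raw counts per miRNA locus with up to 0, 1 or 2 mismatches, and counts of mapped reads per library. The sources used here do not give how a read was assigned to a locus.

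The members and lists were chosen with earlier results of these data known. Named are the 5 members, the 10 most abundant names, up to 3 names most like a member with a mean of at least 10 counts a library, and neighbouring numbers by count and up to 4 names. A name at several loci was counted at its highest locus. Differences were tested with edgeR 4.0.16 under R 4.3.3, with Benjamini-Hochberg adjustment over all miRNAs and a threshold of 0.05. The fit used a robust quasi-likelihood F test with TMM, filterByExpr, 1 coefficient per plasmid and 8 libraries. It was also run on simulated counts. The outcome is not given here, so the fold change that the test could detect is not stated. The alternatives were DESeq2 1.42.0, deposited library sizes, no filter, 1 or 2 mismatches, summed loci, the replicate number as a block, other denominators, and leaving out each library. Folds are from RNAfold 2.7.2. The edgeR and DESeq2 p-values measure the spread between wells. Those of the permutation test also take in the difference between promoters. The groups by RPM with exactly 1 mismatch, the names with at least 100 counts, the growth without CAG-EGFP-Lin28IR replicate 1, overlap counts on other scales, the perfect share between promoters and RPM with up to 1 mismatch were added after the data were seen.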

Additional observations from a re-analysis of the deposited data

Results flagged for a closer look

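Dixon's 95% critical value was used to pick out libraries in 30 groups of 4 libraries (RPM without mismatches, RPM with up to 2 mismatches and growth, for 5 names and 2 promoters), and 9 had a library far from the other 3. Chance gives about 1 in 20 for independent, continuous values. That rate does not apply here, since the measures of a name depend on each other, some values rest on single counts, and the names were picked with these values in view, so the 9 are a description. The libraries of a promoter group come from 2 plasmids.

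In CAG-EGFP-Lin28IR replicate 1, with up to 2 mismatches, miR-6236 was at 4.55 RPM, against 1.03 to 1.22 RPM in the other CAG-EGFP libraries, and miR-6240 at 4.48 RPM, against 0.46 to 0.96 RPM. In CAG-EGFP-MosIR replicate 2, miR-5126 was at 67.8 RPM without mismatches, against 50.4 to 52.6 RPM, and at 62.2 RPM with up to 2 mismatches, against 46.1 to 48.0 RPM. The same library had the lowest miR-6236 level without mismatches, 0.0679 RPM from 1 count, against 0.282 to 0.314 RPM.

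Among U6 libraries, miR-6236 was at 0.397 RPM in U6-Lin28aIR replicate 2, from 6 counts, against 0.0616 to 0.0775 RPM, and miR-6240 at 1.16 RPM in U6-Lin28aIR replicate 1, from 15 counts, against 0.493 to 0.596 RPM. The growth of miR-6239 was 3.22 in CAG-EGFP-Lin28IR replicate 2, against 3.63 to 3.70. The growth of miR-5100 was 1.01 in U6-Lin28aIR replicate 1, from 1 mismatched count, against 1.0 in the other U6 libraries.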

How the results depend on the processing

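The number of miRNAs called for U6 against CAG-EGFP was 2, and 184 with deposited library sizes, 4 without a filter, 3 with 2 mismatches (2 of them shared) and 2 to 11 when single libraries were left out (11 without CAG-EGFP-MosIR replicate 1, 10 without its replicate 2). For Lin28 against Mos and for the interaction it was 0, and leaving out single libraries gave 0 to 3 (3 without CAG-EGFP-MosIR replicate 1 in both). The replicate number as a block left these counts at 2, 0 and 0. The difference between replicates was correlated between plasmids. The correlation was 0.28 between the CAG-EGFP plasmids, 0.04 between the U6 plasmids and -0.40 to -0.19 across promoters. These values do not decide whether libraries of the same replicate number belong together.

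For U6 over CAG-EGFP, miR-5126 was at -0.66 per 18–30-nt read, -0.88 per 21–23-nt read and -1.001 per miRNA count; miR-6239 at -0.37 per 21–23-nt read and -0.49 per miRNA count; miR-5100 at 0.40 and 0.28. With each library left out the ratio was -0.54 to -0.36 for miR-5126, -1.76 to -0.38 for miR-6236, -0.17 to 0.20 for miR-6239, 0.05 to 1.90 for miR-6240 and 0.65 to 0.97 for miR-5100. With each count divided by the reads mapped with the same mismatches, growth was 0.917 for miR-5126 and 0.923 for miR-5100. With each library left out, mean growth was 1.001 to 1.002 for miR-5126, 9.76 to 11.98 for miR-6236, 3.11 to 3.30 for miR-6239, 2.99 to 3.92 for miR-6240 and 1.005 to 1.0102 for miR-5100.

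Signs also turned in values that passed no test. For Lin28 over Mos with deposited library sizes they were -0.028 for miR-5126 and -0.036 for miR-5100. The same comparison gave -0.015 for miR-5126 and -0.086 for miR-6239 without U6-Lin28aIR replicate 1, -0.39 for miR-6240 without CAG-EGFP-Lin28IR replicate 1, and, for miR-5100, -0.016 without U6-MosIR replicate 1, -0.017 without U6-Lin28aIR replicate 2 and -0.0038 without CAG-EGFP-Lin28IR replicate 2. The interaction of miR-5126 was 0.40 with deposited library sizes, 0.015 without a filter, 0.087 without U6-Lin28aIR replicate 2 and 0.032 without CAG-EGFP-Lin28IR replicate 2, and that of miR-6240 was 2.09 without CAG-EGFP-Lin28IR replicate 1. The perfect share of miR-6239 differed by -0.888 points without U6-Lin28aIR replicate 1, and that of miR-5100 by -0.229 points without U6-Lin28aIR replicate 2 or CAG-EGFP-Lin28IR replicate 1 and by -0.841 without CAG-EGFP-MosIR replicate 1. The highest values with a library left out were 0.18 for miR-5126, 0.55 for miR-6239, 2.17 for miR-6240 and 0.16 for miR-5100 for Lin28 over Mos. The lowest interactions were -0.34 for miR-5126, -3.05 for miR-6240 and -1.39 for miR-6239 (without U6-Lin28aIR replicate 1; adjusted p = 0.339, edgeR), which was -0.60 with all libraries and -0.081 without U6-Lin28aIR replicate 2, and the highest share differences 4.72 points for miR-6239 and 0.466 for miR-5100. The causes were not tested. Depth limits miR-6236 and miR-6240 most, with under 10 counts a library on average without mismatches.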
